A study of Mus musculus with 6 samples.

Results

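The elastic fibre and microfibril genes are a set of 10 genes, *Eln*, *Fbn1*, *Fbn2*, *Mfap2*, *Mfap4*, *Mfap5*, *Emilin1*, *Fbln5*, *Efemp1* and *Efemp2*. They were matched by symbol to the gene identifiers of a bulk RNA-Seq count table with 56748 identifiers, and all 10 were found once. The list was proposed with the response of these samples known, so its members were in effect chosen by the same LiCl against control counts that are described here. Their counts, levels and fold changes are therefore given as a description, and no test of the set was made. Ureters of wildtype NMRI mouse embryos were dissected at E12.5 and cultured for 18 h on a membrane support. LiCl, an inhibitor of the kinase GSK3 and thereby an activator of canonical WNT signaling, was added at 15 mM to 3 samples, and 3 control samples received water. In longer LiCl cultures the study saw the WNT target *Axin2* ectopically in the epithelium by in situ hybridization. Its level in the mesenchyme appeared largely unchanged there. Each sample held the RNA of whole explants, with epithelium and mesenchyme together, and no genotype other than wildtype was used. No source used here says whether the samples of a group came from separate cultures, so the spread given below is that between samples, which may be technical.

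Elastic fibres give the wall of tubular and hollow organs its recoil. Fibrillins assemble outside the cell into microfibrils, onto which tropoelastin is deposited with the help of short fibulins and is then joined into insoluble elastin by lysyl oxidases. Microfibril-associated glycoproteins and EMILIN proteins decorate the microfibrils and the boundary between microfibril and elastin, and microfibrils also hold latent TGF-beta complexes. In the mature ureter wall, fibro-elastic material lies in the inner lamina propria and the outer tunica adventitia. Which cells of the whole explants expressed these genes was not tested.

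The sequence before the transcription start was read for part of the members. LiCl acts on a pathway whose DNA-binding partners are the TCF/LEF factors. Windows before a RefSeq start (mouse build GRCm38.p6) were read for 6 of the 10 genes, *Fbn1*, *Mfap2*, *Emilin1*, *Efemp1*, *Fbln5* and *Efemp2*. There were 10 windows of 250 bases among them. No window was read for *Eln*, *Fbn2*, *Mfap4* and *Mfap5*. The member search left out the windows of 1 chromosome, while the windows of all genes were not filtered in this way. A member on that chromosome would not have been read, so a missing window does not show that no start is listed. The window of *Efemp1* is shown as the 1 member window with a match to the AP-1 letters. The upstream window of *Fbln5* is shown as that of the best expressed member called lower. Both read 5′ to 3′ on the strand of the gene, *Efemp1* at chr11:28852955-28853204 on the plus strand and *Fbln5* at chr12:101819120-101819369 on the minus strand. Capitals mark matches to the AP-1 letters (TGANTCA) and GC boxes (GGGCGG, in either orientation). Any base was allowed at N, and the match in *Efemp1* has A there, so it is a match of letters only.
Efemp1: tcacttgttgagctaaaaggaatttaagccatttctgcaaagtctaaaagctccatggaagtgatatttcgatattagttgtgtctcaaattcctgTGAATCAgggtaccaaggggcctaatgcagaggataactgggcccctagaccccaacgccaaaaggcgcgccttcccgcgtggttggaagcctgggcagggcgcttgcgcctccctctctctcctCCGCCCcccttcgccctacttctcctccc
Fbln5: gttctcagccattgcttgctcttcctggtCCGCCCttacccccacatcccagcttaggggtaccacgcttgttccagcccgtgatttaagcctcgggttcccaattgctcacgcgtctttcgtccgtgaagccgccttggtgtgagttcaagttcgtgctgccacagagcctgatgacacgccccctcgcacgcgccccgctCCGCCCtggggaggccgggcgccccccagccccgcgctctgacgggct

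All motifs were searched on both strands. The core of the TCF/LEF site was taken as CTTTGAT, as its common variant CTTTGAA, and as the forms with a second T, which are CTTTGTT on one hand and CTTTGTA on the other. One of these occurred in 0 of the 10 member windows and in 14.8% of all 32851 windows of the same length. The TATA box, searched as TATAAA, was found in 0 of 10 against 12.4%. The AP-1 letters occurred in 1 of 10 member windows against 6.75%, and the GC box in 7 of 10, from 5 of the 6 genes, against 32.7%. A pair of the *Efemp2* windows shares 205 of its 250 bases, so that the same GC boxes count in both, and 8 of the 10 member windows have a GC content above the median of 52.4% of all windows. A window without a match says only that these letters are not in these 250 bases. *Mfap2*, *Fbln5* and *Efemp2* have more than 1 listed start, and gene-level counts do not tell which start was used.

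The libraries held 28473436 to 31266945 counted reads, and 18188 genes were tested. The 7 markers of ureteric mesenchyme summed to 5598 to 6294 reads scaled to a common depth (CPM) in controls and 3766 to 4288 CPM in LiCl samples, and 5 of the 7 were lower. *Col1a1* and *Col3a1* made up most of that sum, and the other 5 summed to 1329 to 1535 CPM in controls and 843 to 879 CPM with LiCl, with 3 lower. The 6 smooth muscle markers summed to 72.2 to 93.4 CPM in controls and 51.3 to 64.1 CPM with LiCl, 4 of them lower, with *Tagln* under 1 CPM. The 7 epithelial markers summed to 907 to 1189 CPM in controls and 681 to 718 CPM with LiCl, with 6 lower and 1 higher. Skeletal muscle markers summed to 4.60 to 5.67 CPM in controls and 4.73 CPM in LiCl replicate 2, but to 28.7 and 62.6 CPM in LiCl replicates 1 and 3. Of the 6 endothelial markers 1 was lower, and of the 5 markers of neural crest and neurons 0 were lower or higher. Of the 5 tested red blood cell markers 2 were higher, and of the 4 nephron progenitor markers 2 were lower and 1 higher. No listed marker of any of these cell types was at 0 in all samples. The part of these shifts in the values below was not tested, and in whole explants fewer cells of a type and less RNA per cell cannot be told apart.

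In the control ureter the 10 genes spanned a wide range of levels, given as FPKM, the fragments per length of transcript and depth of library, which allows genes of different length to be compared. *Mfap2*, which encodes a small microfibril-associated glycoprotein, had the highest level with 189 ± 6.60 FPKM (SD, n = 3 here and below). It was followed by *Mfap4*, a fibrinogen-related microfibril ligand, with 158 ± 3.46 FPKM and *Emilin1*, an elastin interface protein, with 103 ± 2.43 FPKM. Among all tested genes these 3 stood at percentiles 98.5 to 99.4 of control FPKM. The fibrillins followed, *Fbn2* with 44.7 ± 9.47 FPKM and *Fbn1* with 26.8 ± 5.12 FPKM. The fibulins *Efemp2* (22.4 ± 0.704 FPKM), *Efemp1* (13.0 ± 0.473 FPKM) and *Fbln5* (11.01 ± 0.0021 FPKM) came next. *Eln*, the gene of tropoelastin itself, reached 9.85 ± 0.602 FPKM. *Mfap5*, which encodes the second microfibril-associated glycoprotein, was near the lower end of detection with 0.598 ± 0.0580 FPKM. Of the 9 pairs of neighbours in this order, only *Fbn1* and *Efemp2* had overlapping control samples. All members but *Mfap5* were thus at or above the level of tropoelastin, and *Mfap2* had 19.3 ± 1.77 times the FPKM of *Eln*.

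**Figure D1:**
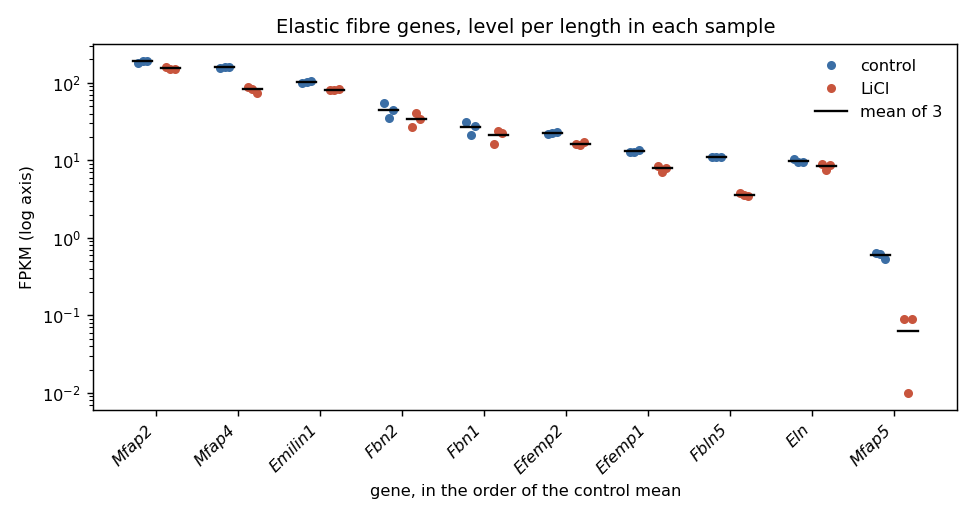
FPKM of the 10 elastic fibre genes on a log axis, in the order of their control mean, with 1 point per sample and a line at the mean of the 3 control or 3 LiCl samples. LiCl samples lie below the controls for 8 genes, while the samples of *Fbn1* and *Fbn2* overlap, and *Mfap5* lies far below the other 9 genes.

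With LiCl the fitted change of all 10 members was below 0, with a median log2 fold change of -0.44 beside -0.01 over all genes tested. At an adjusted p under 0.05 in edgeR's quasi-likelihood test 8 members were lower and 0 higher, where 22.4% of all tested genes were lower and 21.1% higher. With the added demand of a log2 fold change below -1, *Mfap5* and *Fbln5* were called lower, beside 4.59% of all genes called lower, and 0 members were called higher, beside 2.74%. In 8 members every LiCl sample lay below every control, which 27.8% of all genes did. All 10 genes passed the filter on low counts, *Mfap5* only through its controls, so that it could enter only by being high there. As the members were chosen with this contrast known, nothing is read from these counts against the background.

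**Figure D2:**
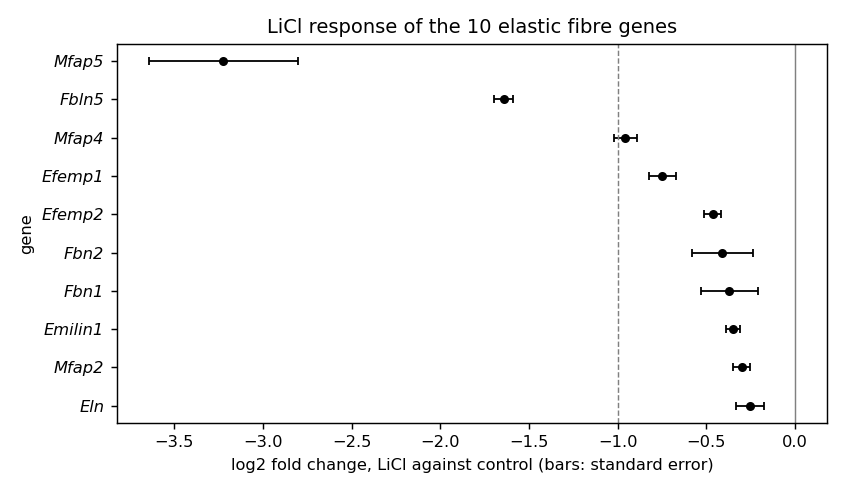
Log2 fold change of each member, LiCl against control, with its standard error from the fit across all genes (3 samples per group); the dashed line marks -1. *Mfap5* at -3.22 and *Fbln5* at -1.64 lie beyond the line, *Mfap4* at -0.96 lies next to it, and the other 7 members lie between -0.75 and -0.26.

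Tropoelastin and the fibrillins, the structural core of the fibre, had small differences. *Eln* had 86.8, 76.4 and 78.7 CPM in the 3 controls and 72.4, 60.1 and 70.1 CPM in the 3 LiCl samples. The groups did not overlap, but the highest LiCl sample and the lowest control were only a few CPM apart. The log2 fold change of *Eln* was -0.26 ± 0.08 (SE), the smallest of the 10, and its adjusted p moved above 0.05 without control replicate 1, without control replicate 3 and without LiCl replicate 2.

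*Fbn1*, the fibrillin that prevails in postnatal and adult microfibrils, had 389, 260 and 337 CPM in controls and 199, 290 and 273 CPM with LiCl. *Fbn2*, the fibrillin that prevails in embryonic tissue, had 729, 468 and 598 CPM in controls and 355, 546 and 449 CPM with LiCl. In both genes control replicate 2 lay within the range of the LiCl samples, and neither passed the test (log2 fold change -0.37 ± 0.16 for *Fbn1* and -0.41 ± 0.17 for *Fbn2*). The coefficient of variation within a group was 19.1% to 21.8% for the CPM of these genes, beside 0.654% to 9.92% for the other 8 members, apart from *Mfap5* with LiCl.

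The fibrillins varied together. In log2(CPM + 1), *Fbn1* deviated from its group mean by 0.26, -0.32 and 0.06 in control replicates 1 to 3 and by -0.33, 0.21 and 0.12 in LiCl replicates 1 to 3. *Fbn2* deviated by 0.31, -0.33 and 0.02 and by -0.32, 0.30 and 0.02. The order of the samples was the same for both genes in both groups. They are also the longest members, with 12128 bases for *Fbn1* and 13215 bases for *Fbn2* as counted, while the other 8 have 1211 to 8098 bases.

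The 1268 genes longer than 10000 bases with an average of 10 CPM or more had median deviations of 0.09, -0.10 and 0.01 in the controls and -0.06, 0.06 and 0.01 in the LiCl samples, the same order at a smaller size. For the 1083 genes of at most 2000 bases the medians were -0.04, 0.06 and -0.02 and then 0.02, -0.01 and 0.00. With an offset for gene length in each sample, an alternative chosen after seeing the data, both fibrillins passed the adjusted p threshold while their log2 fold changes stayed near the first values, at -0.34 for *Fbn1* and -0.37 for *Fbn2*. The FPKM ratio of *Fbn2* to *Fbn1* was 1.67 ± 0.0474 in controls and 1.63 ± 0.108 with LiCl, and it lay between 1.51 and 1.73 in all 6 samples.

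**Figure D3:**
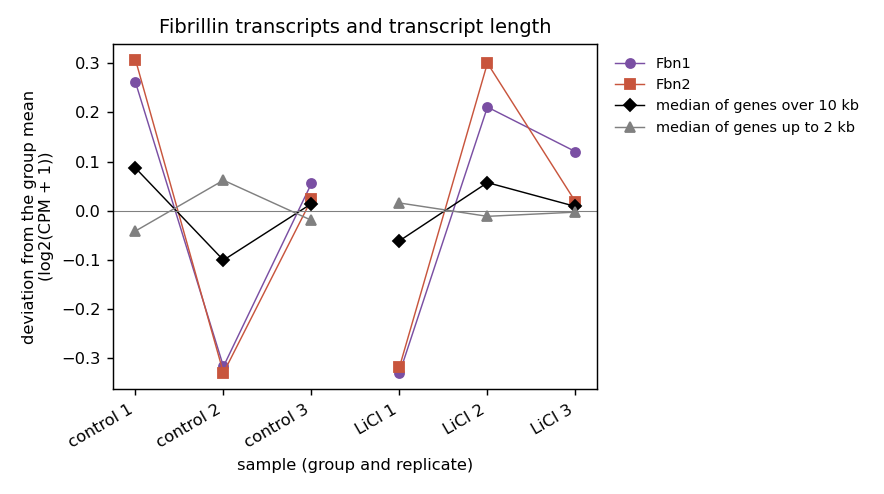
Deviation of *Fbn1* and *Fbn2* from their group mean in log2(CPM + 1) for each sample, with the median deviation of 1268 genes over 10000 bases and of 1083 genes up to 2000 bases. Both fibrillins are high in control replicate 1 and LiCl replicate 2 and low in control replicate 2 and LiCl replicate 1, as is the median of the long genes at a smaller size.

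The short fibulins, which carry tropoelastin and lysyl oxidases to the microfibril, differed widely in their response. *Fbln5* had 77.5, 76.5 and 76.9 CPM in controls and 25.8, 24.3 and 23.7 CPM with LiCl. The controls were nearly identical, and no LiCl sample came near them. The log2 fold change was -1.64 ± 0.05, a level 68.0% lower. *Efemp1*, which encodes fibulin-3, had 26.7, 25.9 and 27.9 CPM in controls and 17.3, 14.5 and 16.1 CPM with LiCl, 40.5% lower (log2 fold change -0.75 ± 0.08). *Efemp2*, which encodes fibulin-4 and is needed for the cross-linking of elastin, had 83.3, 86.4 and 87.7 CPM in controls and 61.9, 60.2 and 64.5 CPM with LiCl, 27.5% lower (log2 fold change -0.46 ± 0.05).

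These unequal changes altered the proportions among the fibulins. *Fbln5* had 0.492 ± 0.0157 times the FPKM of *Efemp2* in controls and 0.217 ± 0.0142 times with LiCl. Against *Eln*, the FPKM ratio of *Fbln5* was 1.12 ± 0.0666 in controls and 0.430 ± 0.0406 with LiCl. *Fbln5* was thus above *Eln* in each control and below it in each LiCl sample, and *Eln* moved from rank 9 to rank 7 among the members while *Efemp1* and *Fbln5* moved to ranks 8 and 9.

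Among the microfibril-associated glycoproteins, *Mfap5* had the largest relative difference of the 10 members. It was covered by 67, 70 and 59 reads in controls and by 10, 1 and 9 reads with LiCl. LiCl replicate 2, with a single read, lay apart from the others, and every control held several times the reads of any LiCl sample. The log2 fold change was -3.22 ± 0.42. Over the group, 20 reads stood against 196, a ratio of 0.106 after scaling for TMM-adjusted library size, with a 95% exact interval of 0.0632 to 0.168 that covers counting error only. With LiCl replicate 2 as the only treated sample the log2 fold change was -5.76, so the size rests on very few reads, and without that replicate it was -2.74.

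*Mfap4* had 301, 310 and 308 CPM in controls and 171, 160 and 142 CPM with LiCl. The groups were far apart, and the level was 48.5% lower. Its log2 fold change of -0.96 ± 0.07 missed the demand of -1 by less than its SE, and without LiCl replicate 1 it was -1.02 and met it. *Mfap2* had 224, 234 and 236 CPM in controls and 196, 185 and 181 CPM with LiCl, 18.9% lower (log2 fold change -0.30 ± 0.05). The FPKM ratio of *Mfap2* to *Mfap4* was 1.20 ± 0.0188 in controls and 1.90 ± 0.110 with LiCl. The most abundant pair of members was thus near parity in controls and unequal after LiCl.

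*Emilin1* had 503, 512 and 523 CPM in controls and 400.3, 396.9 and 408.7 CPM with LiCl. It was among the most even members within a group, with a coefficient of variation of 1.93% and 1.52%, and its level was 21.6% lower (log2 fold change -0.35 ± 0.04).

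The summed FPKM of the 10 genes was 578 ± 9.28 in controls and 410 ± 7.53 with LiCl. *Mfap4* took 27.3 ± 0.818% of the sum in controls and 20.01 ± 1.52% with LiCl, and *Fbln5* took 1.91 ± 0.0302% and 0.870 ± 0.0309%. The share of *Mfap2* was 32.7 ± 1.21% in controls and 37.8 ± 1.27% with LiCl, and that of *Emilin1* 17.8 ± 0.407% and 19.9 ± 0.716%. For these 4 genes the samples of the groups did not overlap in share. *Eln* had 1.70 ± 0.103% and 2.04 ± 0.219%, with 1 LiCl sample inside the range of the controls.

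**Figure D4:**
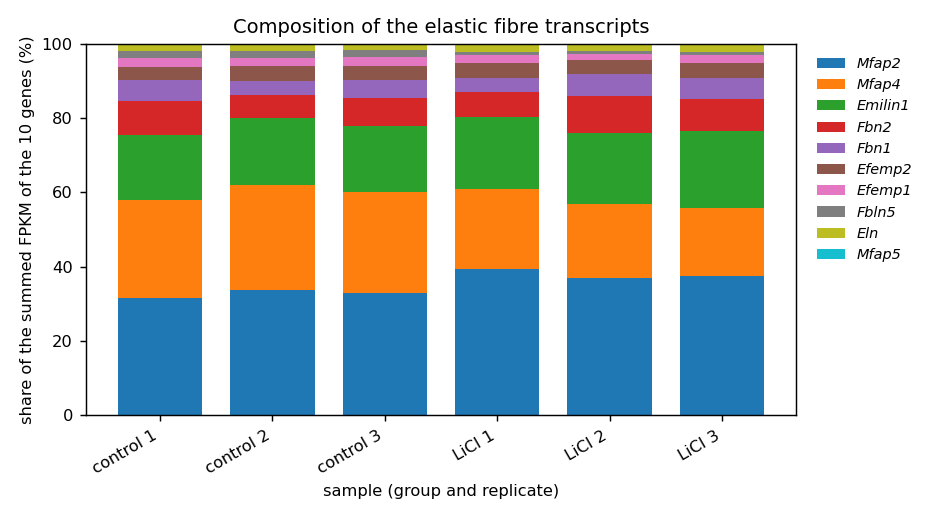
Share of each member in the summed FPKM of the 10 genes, in percent, as 1 stacked bar per sample, in the order of control level from the bottom. The *Mfap4* part is narrower in the 3 LiCl samples (18.5% to 21.5%) than in the 3 controls (26.6% to 28.2%), and *Mfap2* is the largest part in every sample.

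Part of the counting is uncertain for 5 members. In the annotation at hand (GENCODE vM21), exons of *Eln*, *Fbn1*, *Fbn2*, *Efemp2* and *Mfap4* share bases with an exon of a gene on the opposite strand, and the strand setting of the counting is not stated. The partners of *Eln* (*Gm30003*) and *Fbn1* (*Gm9913*) had under 1 CPM in every sample, and that of *Fbn2* (*Gm26507*) has no value here. *Mus81*, beside *Efemp2*, had 25.0 to 28.5 CPM in controls and 27.7 to 31.4 CPM with LiCl. *Mapk7*, beside *Mfap4*, had 120.5 to 125 CPM in controls and 143 to 152 CPM with LiCl, the opposite direction to *Mfap4*. *Fbln5*, *Mfap5*, *Efemp1*, *Mfap2* and *Emilin1* had no such partner.

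The other genes of elastic fibre assembly were counted from a list of 52 genes in 9 roles, of which 51 were tested, the exception being *Elane* with 2 reads in all samples together. Of these, 27 were lower and 6 higher at an adjusted p under 0.05 over all genes, beside 22.4% and 21.1% of all tested genes. With the fold demand 7 were called lower and 2 higher, beside 4.59% and 2.74%. Their median log2 fold change was -0.30 beside -0.01 over all genes. The list was drawn up with results of these samples known, so it is not independent evidence of a direction, and the counts by role below were not tested.

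Cross-linking enzymes had 3 of 5 lower and 0 higher. *Lox*, the lysyl oxidase that starts the covalent joining of elastin and collagen, had 53.7, 47.1 and 48.9 CPM in controls and 14.3, 14.7 and 15.4 CPM with LiCl (log2 fold change -1.75 ± 0.07, adjusted p = 3.7e-07, edgeR). *Loxl1*, the paralog that binds fibulin-5, had 14.5, 13.6 and 17.7 CPM in controls and 4.12, 4.12 and 3.97 CPM with LiCl (log2 fold change -1.91 ± 0.12, adjusted p = 5.3e-06, edgeR). No LiCl sample of either enzyme came near a control, while *Loxl2* and *Loxl4* did not pass the test.

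Of 8 ADAMTS and ADAMTS-like genes 6 were lower and 1 higher. *Adamts6*, a secreted protease that acts on fibrillin microfibrils, fell from 71.4 ± 6.15 to 20.6 ± 1.92 CPM (log2 fold change -1.79 ± 0.09, adjusted p = 9.5e-07). *Adamtsl4*, whose product binds fibrillin-1, fell from 15.0 ± 0.379 to 5.98 ± 0.961 CPM (log2 fold change -1.32 ± 0.12), and *Adamtsl2*, at a low level, from 1.72 ± 0.169 to 0.593 ± 0.206 CPM (log2 fold change -1.52 ± 0.28). Latent TGF-beta binding proteins had 3 of 4 lower, with *Ltbp4*, which also takes part in elastin deposition, at 129 ± 18.6 CPM in controls and 67.5 ± 8.77 CPM with LiCl (log2 fold change -0.94 ± 0.11).

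The other fibulins had 2 of 4 lower and the scaffold and microfibril-associated matrix genes 3 of 5. *Fbln2* fell from 174 ± 12.0 to 115 ± 12.1 CPM (log2 fold change -0.59 ± 0.08). *Dcn*, which encodes the small proteoglycan decorin, fell from 93.2 ± 14.6 to 29.8 ± 3.31 CPM (log2 fold change -1.64 ± 0.12). Receptors had 4 of 7 lower, and *Itgb5*, an integrin subunit that recognises RGD sequences of matrix proteins, fell from 102 ± 3.49 to 60.0 ± 5.28 CPM (log2 fold change -0.77 ± 0.07).

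Relatives of EMILIN-1 moved both ways, with 2 of 4 lower and 2 higher. *Emilin2* rose from 21.4 ± 0.690 to 44.0 ± 1.47 CPM (log2 fold change 1.04 ± 0.06, adjusted p = 2.0e-06, edgeR), while *Emilin1* was lower. Of the 6 tested proteases that degrade elastin 2 were lower and 1 was higher. *Mmp12*, macrophage elastase, fell from 2.65 ± 0.421 to 0.671 ± 0.140 CPM (log2 fold change -1.98 ± 0.24), and *Mmp9*, gelatinase B, rose from 2.45 ± 0.700 to 6.03 ± 0.481 CPM (2.46-fold). The 5 macrophage markers, beside *Mmp12*, summed to 45.5 to 74.2 CPM in controls and 42.0 to 57.2 CPM with LiCl, with 2 lower and 1 higher, and their part in the protease values was not tested. Processing, secretion and elastin receptor genes had 2 of 8 lower and 2 higher, with *Furin*, a proprotein convertase that cleaves profibrillin, at 148 ± 5.35 CPM in controls and 112 ± 1.98 CPM with LiCl (log2 fold change -0.39 ± 0.05).

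**Figure D5:**
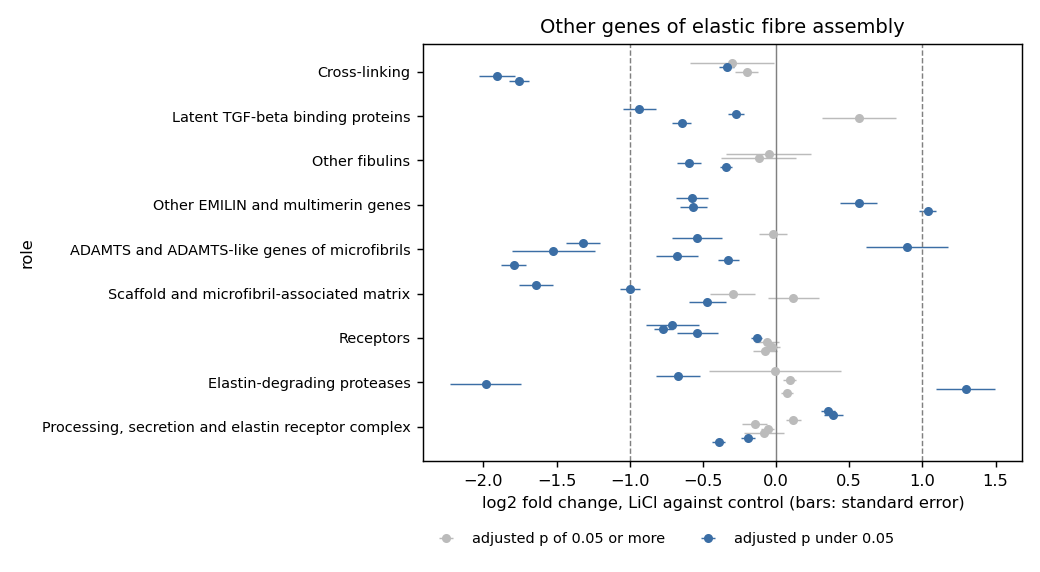
Log2 fold change with standard error of the 51 tested assembly genes by role (3 samples per group), in blue where the adjusted p over all genes was under 0.05 and in grey otherwise; dashed lines mark -1 and 1. The 7 genes called lower lie left of -1 in cross-linking, ADAMTS, matrix and protease roles, and the 2 called higher are an EMILIN and a protease.

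The pattern over the 6 samples was compared between genes by Pearson's r of log2(CPM + 0.1), as a description over the 15448 genes that averaged 1 CPM or more, where the points share their libraries and the difference between groups. The genes most like *Eln* were *Mospd2* (r = 0.9927), *Nfil3* (0.9883), *Neu3* (0.9865), *Syt5* (0.9851) and *Tmcc3* (0.985). For *Mfap5* they were *Rcn3* (r = 0.9984), *Sparc* (0.9975), *Tead4* (0.9974), *Ajap1* (0.9973) and *Tgm2* (0.9972). The LiCl samples of *Mfap5* held 10, 1 and 9 reads. The place of LiCl replicate 2 in its pattern thus rests on 1 read and the added 0.1 CPM, and so does this list. Likeness of pattern was not likeness of size, since the log2 fold change was -0.24 for *Rcn3* and -0.81 for *Tgm2* beside -3.22 for *Mfap5*.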

How the data were processed

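Poly-A selected, stranded libraries of the 6 explant samples were sequenced as 150 bp read pairs. The authors deposited raw counts per gene, and FPKM values per sample. The submitters' processing notes name fastp 0.23, STAR 2.7, featureCounts 2.0, DESeq2 1.40 and GRCm39, while the study's methods name HISAT2 as the aligner, and the annotation release and strand setting are not given in the sources used here. The deposited FPKM equalled counts divided by DESeq2's size factors and a whole-number gene length in 100% of 18535 genes with over 50 reads (tolerance 0.01 bases). Symbols came from GENCODE vM21 (GRCm38), which matched 52073 of 56748 identifiers.

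R 4.3.3 with edgeR 4.0.16 was used for the main fit. Genes were filtered with filterByExpr, libraries scaled with TMM, and the quasi-likelihood F test applied to 18188 genes, whose p-values were adjusted after Benjamini and Hochberg. CPM were scaled by TMM. SE were derived from the fold change and the F statistic. For a call, the log2 fold change had to lie beyond 1 in either direction with the adjusted p below 0.05, as the study set for DESeq2. In simulated counts of this comparison with 200 of 18188 genes changed, 96.5% were recovered with 1 false call. Every changed gene was given the same fold up or down, beyond the fold demand, and all genes had the same dispersion. Recovery for genes with the fold changes and spread of the members was not tested. Alternatives used DESeq2 1.42.0 and limma 3.58.1, and the Poisson ratio interval scipy 1.17.1. No replicates were near-identical in a chi-square comparison of their counts. No label says that equal replicate numbers mark pairs, and the numbers were not used in the main fit.

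The members, the gene lists by role and the markers were chosen with earlier results of these data known. Named are all members, every listed assembly gene that was called, the gene of each role with the largest change past the adjusted p threshold, and the 5 genes most like *Eln* and *Mfap5*. *Loxl2*, *Loxl4* and genes sharing bases with members were named after their values were seen.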

Additional observations from a re-analysis of the deposited data

How the results depend on the processing

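The order of the members by control FPKM and the negative sign of every member held under each alternative run. Members called lower, 2 with *Mfap5* and *Fbln5*, were 1 with at least 10 reads in every sample and 1 in each of the 3 limma fits on FPKM, where *Mfap5* was not tested or, with log2(FPKM + 1) and no filter, had a log2 fold change of -0.59. They were 8 with no demand on the fold, and 2 to 3 when 1 sample was left out. Members lower at the adjusted p alone were 6 to 10 over the alternatives and 7 to 10 with 1 sample left out. Where tested, only *Eln* lost its place there, in 6 alternatives, and *Fbn1* and *Fbn2* gained one, in 3 and 5. Leaving LiCl replicates 1 and 3 out together, chosen after seeing their muscle markers, left 2 members called lower and 8 at the adjusted p alone. The single treated sample is assumed there to vary like the controls, which supply all of the spread.

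Over all genes, 835 lower and 498 higher calls became 141 and 177 with limma on log2(FPKM + 1), 139 and 171 without its filter, and 4071 and 3844 with no demand on the fold, and the lower calls became 430 with log2(FPKM + 0.1). For the assembly genes, 7 lower and 2 higher calls became 4 and 0 with log2(FPKM + 1), with or without the filter, and 27 and 6 with no demand on the fold, and the higher calls became 1 with library size alone. A larger pseudocount reduces the fold of low genes by construction. Otherwise the cause was not tested.

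With the replicate number as a block, 801 genes were called lower and 478 higher, 2 of them members. Same-numbered samples correlated at -0.01, -0.18 and 0.13 in their deviations, and 1 of the 3 numbers was its own best match in both groups. With so few samples this cannot show whether the cultures were paired. Depth limits *Mfap5*, with 1 to 10 reads per LiCl sample.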
